A study of Homo sapiens with 16 samples.

Results

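Fractions 1 and 2 of a sucrose gradient were compared between untreated human 293S cells and 293S cells given sodium arsenite. The comparison used 4 of the 16 libraries of the series: control fraction 1, control fraction 2, arsenite fraction 1 and arsenite fraction 2. They were chosen by treatment and fraction number alone, and each of the 13148 genes of the deposited table was followed through all 4. The questions were which mRNAs already lay in these fractions without stress, which entered them with arsenite and on which side, and which stayed out.

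293S is an established line of the HEK293 family, which derives from human embryonic kidney. Cells grew as adherent monolayers in DMEM with 10% FBS and antibiotics. The control group was untreated, and the other group received 1 mM sodium arsenite for 30 minutes. Total RNA of each gradient fraction was taken up in Trizol and sequenced after NSR priming, with 1 library for each treatment and fraction and 8 fractions in each gradient. The series studies how Argonaute 2 binds mRNAs in stressed cells and how their translation changes.

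A sucrose gradient sorts RNA by the size of the particle that carries it. An mRNA free of ribosomes sediments with light particles, and each further ribosome on an mRNA makes the particle heavier. Arsenite activates kinases that phosphorylate the initiation factor eIF2, so that most mRNAs start translation less often and lose ribosomes, while a few with upstream reading frames are translated better. The labels do not state which end of the gradient was numbered 1, so the fractions are called here by number.

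Every value below is a share: the percentage of an mRNA's total over the 8 fractions of its own gradient that lay in a given fraction. The level of an mRNA and the read depth behind its share are not known, so no interval is given, and a value of 0 is only listed as 0. Where a pair of shares is given for a gene, fraction 1 comes first and fraction 2 follows. With 1 library per group no difference could be set against a spread between replicates, and there is no p-value. The sources used here do not give how the authors scaled the fractions of a gradient against each other, and a general rise depends on that scaling. Shares were therefore also formed after median-of-ratios size factors, which set the typical gene equal in all 16 libraries and so remove a rise common to most genes by construction. Across genes, the rank of the rise was similar under both scalings (Spearman 0.886 over 13148 genes). The rank of the split between fractions 1 and 2 was almost the same (Spearman 0.9999). That follows by construction, since size factors shift the split of every gene by nearly the same amount.

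Most mRNAs had a larger share in fractions 1 and 2 after arsenite. The median gene had 3.47% in fraction 1 and 7.21% in fraction 2 in the control, and 9.41% and 23.9% with arsenite. The summed share was 11.3% in the control and 38.3% with arsenite at the median, with quartiles over genes of 24.4% and 56.2% after treatment. It was higher with arsenite in 12696 genes (96.6%) and lower in 434. The median rise was 24.3 percentage points as deposited and 1.55 points with size factors, under which 7051 genes were higher. The order of genes in this rise thus depended less on the scaling than its common size did.

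The rise was not shared out evenly. Genes were called entered when they had under 50% in fractions 1 and 2 in the control and at least 20 points more with arsenite, which 7606 genes did (57.8% of all). Already low genes had at least 50% there in the control without a fall of 20 points, and numbered 96 (0.73%). Genes with under 20% there in both gradients were called stayed out and numbered 2056 (15.6%). Genes lower by at least 20 points with arsenite, called left, numbered 43 (0.327%), and the other 3347 lay between. With size factors 2711 genes entered (20.6%), of which 2709 were among the 7606. The number that stayed out was 2822 (21.5%), and 1534 of the 2056 were among them. Control and arsenite shares followed each other only loosely across genes (Spearman 0.301 over 13148 genes).

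**Figure D1:**
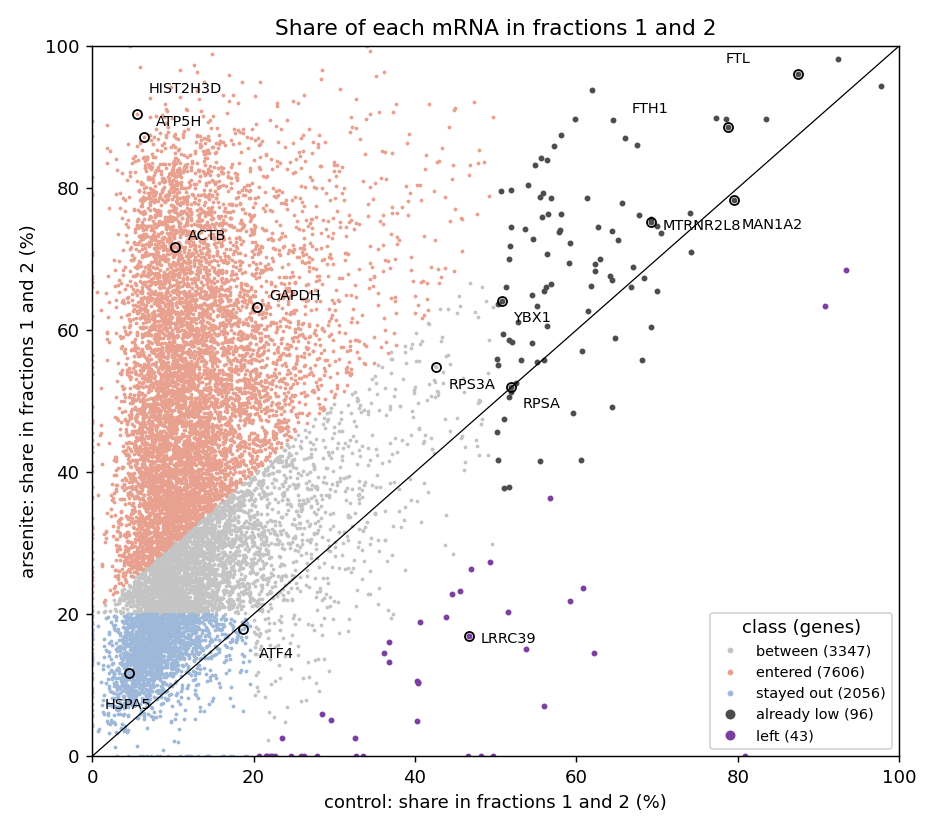
Each point is 1 gene, with its summed share in fractions 1 and 2 in percent in the control on the horizontal axis and with arsenite on the vertical axis. Colours give the classes with their numbers of genes, the line marks equal shares, and circles mark named genes. The 7606 entered genes fill the upper left, and the 96 already low genes lie to the right of 50%.

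The mRNAs already low without stress included both ferritin subunits. FTH1, the heavy chain of the iron store ferritin, had 48.1% in fraction 1 and 30.8% in fraction 2 in the control, and 70.8% and 17.8% with arsenite. FTL, the light chain, had 52.1% and 35.4% in the control and 77.8% and 18.2% with arsenite, and is listed at 0 in 1 of the 16 libraries. For both, fraction 1 was the larger share in each gradient, and with arsenite the share of fraction 1 was higher and that of fraction 2 lower. MAN1A2, a mannosidase of the Golgi, had the highest control share among genes with no 0. As deposited, its 4 values hardly differed between treatments, with 57.9% and 21.6% in the control and 55.5% and 22.7% with arsenite. NTAN1, an amidase of the N-degron pathway, went from 41.8% and 23.9% to 55.7% and 22.2%. With size factors the sums in the control and with arsenite were 92.7% and 73.3% for MAN1A2 and 86.3% and 78.5% for NTAN1. For FTH1 they were 91.9% and 87.8%, and for FTL 95.6% and 91.0%.

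Of the 96 already low genes, 49 had no 0 in any of the 16 libraries. With size factors the class held 440 genes (3.35%), of which 48 were among the 96. Some genes were even in both gradients. ZNF124, a zinc finger gene, had 40.7% and 33.5% in the control and 35.2% and 35.7% with arsenite, and APLF, a DNA repair factor, had 34.4% and 35.6% and then 31.8% and 33.7%. Both counted as left with size factors. YBX1, which encodes an RNA-binding protein of untranslated mRNPs, had 18.4% and 32.4% in the control and 15.3% and 48.8% with arsenite. As deposited, its gain thus lay in fraction 2 alone. TMEM219 had 33.4% and 31.2% in the control and 66.6% and 23% with arsenite, a gain in fraction 1. With size factors the sums in the control and with arsenite were 68.2% and 52.3% for YBX1 and 85.1% and 85.4% for TMEM219. The already low mRNAs thus differed among themselves in which side gained under the deposited scaling.

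The 7 MTRNR2L genes in the table, nuclear copies of a stretch of mitochondrial ribosomal RNA, were all already low, with most of their share of the 2 fractions in fraction 2. Their control shares were 0% to 3.04% in fraction 1 and 51.7% to 67.0% in fraction 2. MTRNR2L8 had 2.56% and 66.7% in the control and 1.25% and 73.9% with arsenite. With size factors the 7 genes except MTRNR2L4 counted as left, MTRNR2L8 with 82.1% in sum in the control and 50.2% with arsenite. Near-identical copies, the mitochondrial original among them, can share reads with these genes, so the values cannot be assigned to the nuclear copies. In this group MTRNR2L4, MTRNR2L7 and MTRNR2L10 are also listed at 0 in 3 libraries each.

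**Figure D2:**
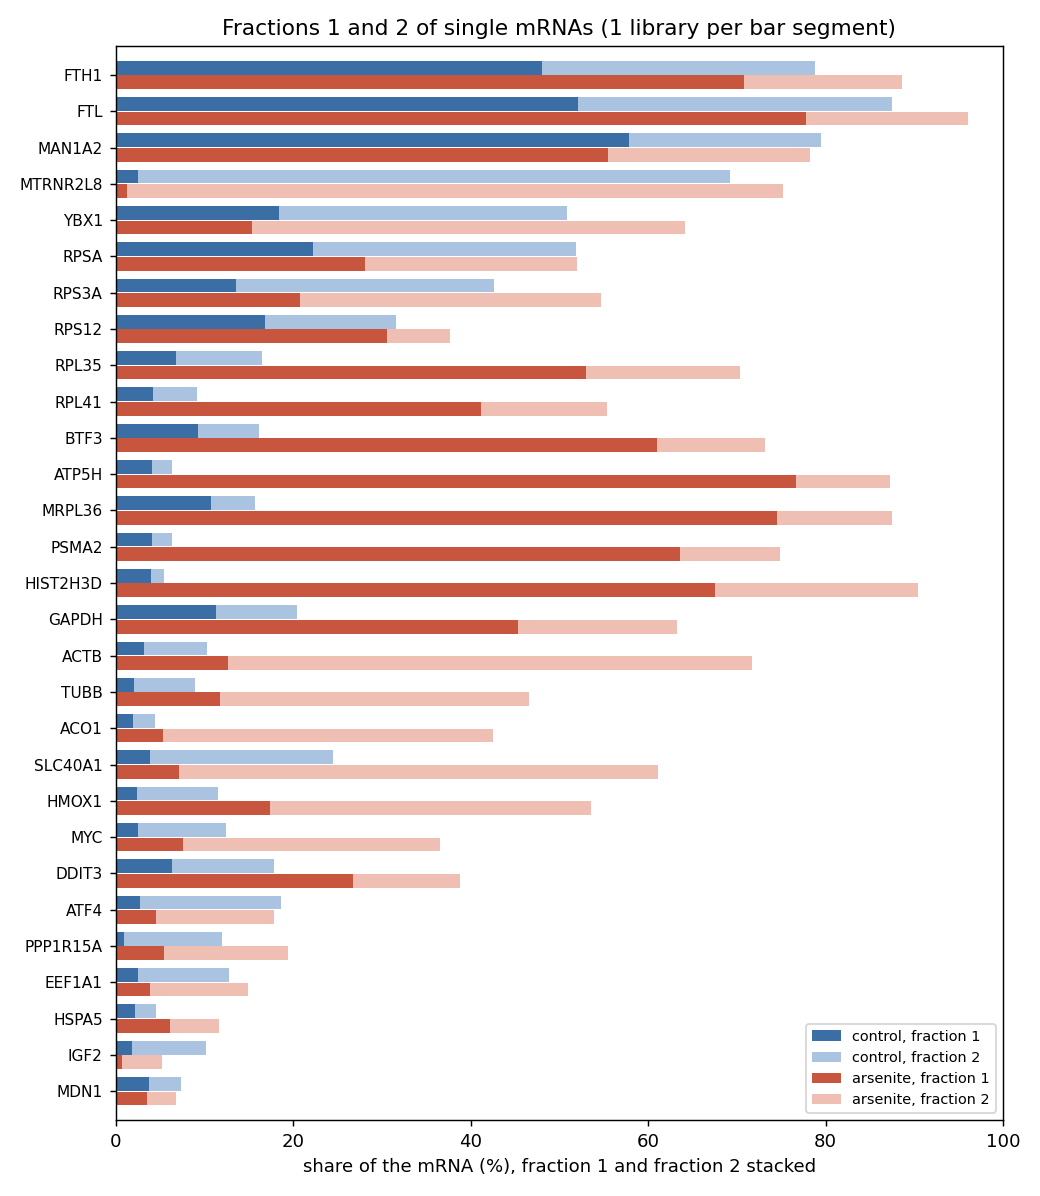
Stacked bars give the share of single mRNAs in fraction 1 (dark) and fraction 2 (light) in percent, in the control (blue) and with arsenite (red), with 1 library behind each segment. FTH1, FTL and MAN1A2 are long in both gradients, ATP5H and HIST2H3D only with arsenite, and ATF4, EEF1A1 and MDN1 in neither.

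Iron-regulatory proteins bind a hairpin, the iron-responsive element, in the 5' UTR of ferritin mRNAs and hold back their translation when iron is scarce. The letters of this element were searched as C, any 5 bases, CAGTG and any 1 base, on the mRNA strand in the first 200 bases. They occurred in 876 of 13059 mRNAs (6.71%), so a match describes letters and not a working element. The motif of SLC40A1 lies at bases 205 to 216 of its annotated mRNA, beyond the stretch of that count. The windows below, of 30 bases each, are shown because these mRNAs share the motif and differ in their shares. Capitals mark the motif. They come from GENCODE 29 on GRCh38: FTH1 at chr11:61967576-61967605 on the minus strand, FTL at chr19:48965332-48965361 on the plus strand, EPAS1 at chr2:46297476-46297505 on the plus strand and SLC40A1 at chr2:189580663-189580692 on the minus strand, all in 5' UTRs.
FTH1: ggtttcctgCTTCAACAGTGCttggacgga
FTL: tgtctcttgCTTCAACAGTGTttggacgga
EPAS1: ccgtacaatCCTCGGCAGTGTcctgagact
SLC40A1: ttccaacttCAGCTACAGTGTtagctaagt
SLC40A1, the iron exporter ferroportin, had 3.84% and 20.7% in the control and 7.11% and 54.0% with arsenite. EPAS1, a hypoxia transcription factor, had 2.03% and 12.8% in the control and 3.53% and 22.1% with arsenite. Unlike the ferritins, both had under 50% in the 2 fractions without stress, and their larger share was in fraction 2. Of the 10 listed mRNAs of iron handling, 2 were already low (the ferritins) and 5 entered (50%, against 57.8% of all genes). With size factors 1 of the 10 entered (10%, against 20.6%). ACO1, which encodes an iron-regulatory protein, was among the 5, going from 1.99% and 2.42% to 5.37% and 37.2%.

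How far an mRNA entered ran with its length, taken over 10 classes of equal size by annotated mRNA length. In the shortest class (177 to 1406 nt, 1307 genes) the median share in fraction 1 was 5.14% in the control against 44.3% with arsenite, and that in fraction 2 was 5.62% against 21.4%. In this class 90.7% of genes entered and 1.76% stayed out. In the longest class (from 7403 nt, 1306 genes) the medians were 3.72% and 7.06% in fraction 1 and 5.69% and 11.7% in fraction 2, and 15.8% of genes entered while 51.2% stayed out. The median rise was 55.8 points in the shortest class and 8.55 points in the longest.

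The side that gained also ran with length. The fraction 1 share with arsenite fell steeply over the first 4 classes, from 44.3% to 8.89%, and changed little after that. The fraction 2 share was largest in the third and the fourth class, at 33.9% and 33.8%. Across 13060 genes with an annotated length, Spearman correlation with mRNA length was -0.636 for the arsenite share in fractions 1 and 2 (-0.665 with size factors), -0.609 for the rise (-0.534) and -0.125 for the control share (-0.231). Genes share the 4 libraries, so these are descriptions across genes. The length order was thus much clearer with arsenite than without.

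**Figure D3:**
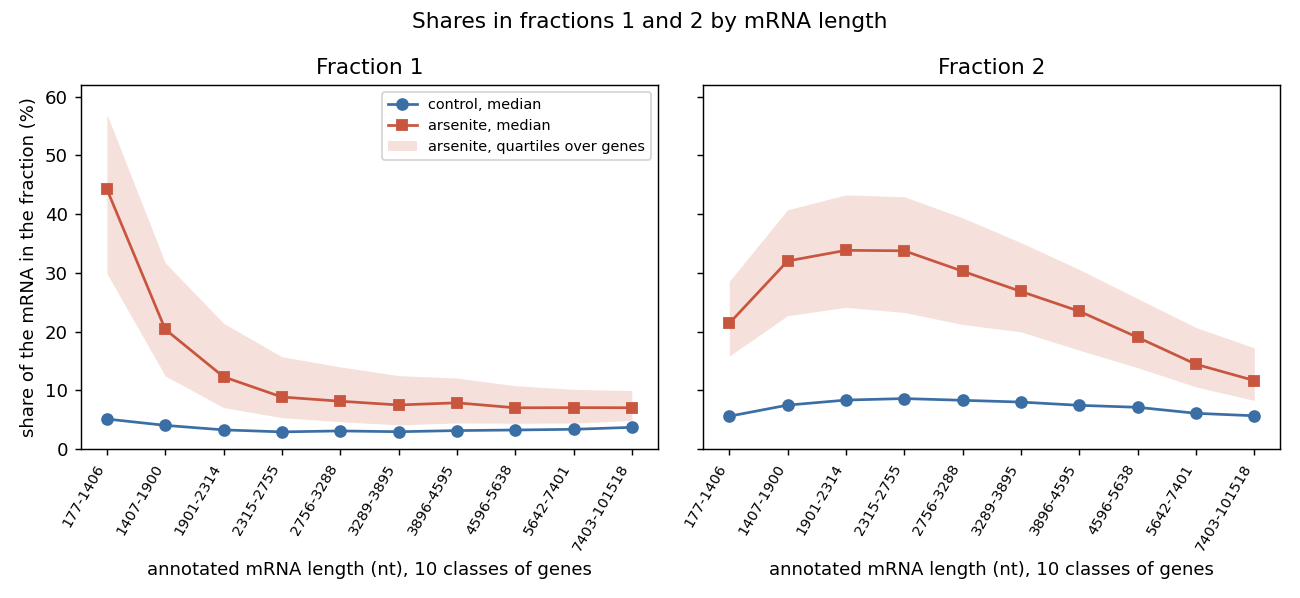
Median share in fraction 1 (left) and fraction 2 (right) in percent over 10 classes of annotated mRNA length in nt, in the control (blue) and with arsenite (red, with quartiles over genes as a band). With arsenite the fraction 1 share is 44.3% in the shortest class and 7.06% in the longest, while the fraction 2 share is largest in the third class, at 33.9%, and the control medians stay between 2.95% and 5.14% in fraction 1 and between 5.62% and 8.62% in fraction 2.

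The 10 genes with the largest rise, among genes with no 0, gained 80.4 to 84.9 points, and all 10 also entered with size factors. Their coding sequences had a median of 466.5 nt. HIST2H3D, a histone H3 gene, had 4.03% and 1.48% in the control and 67.5% and 22.8% with arsenite. ATP5H, a subunit of mitochondrial ATP synthase, went from 4.16% and 2.2% to 76.6% and 10.6%, and ROMO1, a small protein of the mitochondrial inner membrane, from 3.62% and 5.64% to 78.2% and 12.7%. TIMM8B, a chaperone of the mitochondrial intermembrane space, COMMD1, MGST1, FAM162A and ZMYM6NB had the same form, with 71.1% to 78.1% in fraction 1 with arsenite. The other two, FAM125A and ECE2, were more even, with 46.0% and 39.3% for FAM125A and 57.6% and 32.8% for ECE2. In sum, these 10 mRNAs had 2.22% to 13.0% in the 2 fractions without stress and 85.3% to 93.7% with arsenite.

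mRNAs for the respiratory chain and for mitochondrial ribosomes entered with 1 exception. Of 76 nuclear-encoded subunits of oxidative phosphorylation 75 entered, with a median share of 7.49% in the control and 76.5% with arsenite, against 57.8% of all genes. Of 74 mitochondrial ribosomal proteins all 74 entered, with medians of 9.92% and 71.2%. With size factors 72 and 66 entered, against 20.6% of all genes. These mRNAs are short, with a median of 1080 nt for oxidative phosphorylation. Set against genes of like length, their arsenite share was still higher, by a median of 10.5 points for oxidative phosphorylation and 8.93 points for mitochondrial ribosomal proteins. The exception, SDHC of the succinate dehydrogenase complex, had 0.930% and 3.39% in the control and 3.92% and 13.2% with arsenite, and its annotated mRNA was 13566 nt long. MRPL36, of the large mitochondrial ribosomal subunit, went from 10.8% and 4.95% to 74.6% and 12.9%.

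Other groups that entered were proteasome subunits, chaperonin subunits and the cytoskeleton. All 30 proteasome genes entered, with a median of 62.9% in the 2 fractions with arsenite, and PSMA2, a subunit of the catalytic core, went from 4.07% and 2.27% to 63.6% and 11.3%. PSMD2, a large subunit of the regulatory particle, had the lowest arsenite share of the list and went from 0.662% and 2.36% to 3.82% and 26.8%. All 8 CCT chaperonin subunits entered, and so did 12 of 13 tubulin and actin genes, whose arsenite share was 13.7 points above genes of like length at the median. The proteasome and CCT lists lay near genes of like length. Their median differences were 1.91 points (16 genes above and 14 below) and -2.12 points (4 above and 4 below). ACTB, cytoplasmic beta-actin, had 3.18% and 7.13% in the control and 12.7% and 59.0% with arsenite, mostly in fraction 2. GAPDH, a glycolytic enzyme, had 11.4% and 9.03% in the control and 45.4% and 17.9% with arsenite, mostly in fraction 1. Of 16 glycolysis genes 13 entered and 3 stayed out, PFKM (phosphofructokinase of muscle type) at 4.09% and then 14.2% in the 2 fractions together. Of the families chosen by name, 138 of 180 TMEM genes, 48 of 61 Rab GTPases and 32 of 40 SLC25 carriers of the mitochondrial inner membrane entered, against 57.8% of all genes. With size factors these counts were 49 (27.2%), 13 (21.3%) and 11 (27.5%), near the 20.6% of all genes, while 26 of the proteasome, 5 of the CCT, 10 of the tubulin and actin and 12 of the glycolysis genes entered.

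Cytosolic ribosomal proteins differed from their mitochondrial counterparts in where they began. Their median share in fractions 1 and 2 was 19% in the control, against 11.3% for all genes, and 56.6% with arsenite. Of 75 genes, 60 entered, 12 lay between and 3 were already low (RPSA, RPS2 and RPL12). With size factors 34 entered and 13 were already low. Although their mRNAs are short, with a median of 1041 nt, their arsenite share was 10.2 points below that of genes of like length at the median (4.10 points below with size factors). Many processed copies of these genes exist in the genome, and how reads shared with copies were treated is unknown here.

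These mRNAs begin with a C followed by a run of pyrimidines, the 5' terminal oligopyrimidine tract through which growth signals control their translation. A C with at least 4 pyrimidines after it at the RefSeq start was found in 41 of 61 ribosomal protein genes with a start in the table, and in 575 of 10736 genes overall. The starts below (first 20 bases, RefSeq, GRCh38.p14, pyrimidine run in capitals) are shown because mRNAs with like starts had unlike shares. The first pair gained little in sum, the second pair entered mainly fraction 1, and EEF1A1 stayed out.
RPSA: CTTTTCCgtgctacctgcag
RPS12: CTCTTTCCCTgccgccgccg
RPL35: CTCTTTCCCTCggagcgggc
BTF3: CCCTTTagctgccatcttgc
EEF1A1: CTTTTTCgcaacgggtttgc
They lie at chr3:39406720-39406739 (RPSA, plus strand), chr6:132814569-132814588 (RPS12, plus), chr9:124861938-124861957 (RPL35, minus), chr5:73498442-73498461 (BTF3, plus) and chr6:73521013-73521032 (EEF1A1, minus). RPSA, a small subunit protein, had 22.2% and 29.7% in the control and 28.1% and 23.9% with arsenite. RPS12 went from 16.8% and 14.8% to 30.6% and 7.18%. RPL35, a large subunit protein, went from 6.86% and 9.60% to 53.0% and 17.4%. RPSA and RPS12 were thus high without stress and gained little in sum, while RPL35 began lower and gained more than they did. BTF3, which acts on nascent chains, went from 9.31% and 6.86% to 61.0% and 12.2%. EEF1A1, the elongation factor that brings tRNA to the ribosome, had 2.55% and 10.3% in the control and 3.89% and 11.1% with arsenite. Among ribosomal proteins, the 41 with the tract at the RefSeq start had a median of 56.4% with arsenite and the 20 without it there 57.9%. Set against genes of like length, the medians under the deposited scaling were -12.7 points with the tract and -3.5 points without it. Among mitochondrial ribosomal proteins the arsenite medians were 53.8% in the 5 with such a start and 71.3% in the 61 without. Over all genes the order was the other way, with 42.3% in the 575 with such a start and 38.2% in the 10161 without. Against genes of like length, the all-gene medians were 0.71 points with it and 0.05 points without.

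Replication-dependent histone mRNAs, whose ends form a stem-loop and lack poly(A), had the lowest median control share of the lists as deposited. It was 4.03%, against 62.5% after arsenite, and 50 of 52 entered (45 with size factors). With size factors their median control share was 13.2%, above the 10.6% of collagens, laminins and integrins. With a median length of 463 nt they are among the shortest mRNAs, and their arsenite share was 8.07 points below that of genes of like length (3.77 points below with size factors). The 4 linker histone genes of the list had between 1.81% and 2.53% in fraction 1 in the control. With arsenite they had between 12.4% (HIST1H1D) and 68.1% (HIST1H1A) there. Histone genes are near-identical copies of each other, so counts can be shared between them.

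The split between the 2 fractions was taken as log2 of fraction 1 over fraction 2 after adding 1 point to each, less its median over the 10979 genes with at least 20% there with arsenite. On this relative scale 2561 genes (23.3%) lay toward fraction 1 by 1 or more, and 2380 (21.7%) toward fraction 2. In plain shares, 2598 of 13148 genes (19.8%) had more in fraction 1 than in fraction 2 with arsenite and 2588 (19.7%) in the control, but 8038 with size factors, so genes are compared here by their relative order. Of the 2561 and 2380 genes, 2176 and 1639 kept their side with size factors. Only 8192 genes had at least 20% in the 2 fractions with arsenite under that scaling. Genes below this limit were no longer compared and count as not kept. Fraction 1 held 50% or more of an mRNA in 10 genes in the control and 800 with arsenite, and fraction 2 in 14 and 581.

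The mRNAs farthest toward fraction 1 had short coding sequences. The 10 highest relative splits had coding sequences of 207 to 693 nt, 54.0% to 83.3% in fraction 1 with arsenite and only 4.77% to 8.48% in fraction 2. SEC61G, the smallest subunit of the channel into the endoplasmic reticulum, had 5.55% and 1.92% in the control and 75.1% and 6.26% with arsenite. NDUFB3, of respiratory complex I, went from 4.19% and 4.58% to 65% and 7.27%, and SNRPE, of the spliceosomal Sm ring, from 7.33% and 3.25% to 60.6% and 5.94%. C12orf45, CMC1 and GTF2H5 are in this group with annotated mRNAs of 23529, 6033 and 7481 nt but coding sequences of 558, 321 and 216 nt. With arsenite fraction 1 thus held most of each of these mRNAs.

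At the other end, mRNAs had almost nothing in fraction 1 with arsenite. MAP4K2, a protein kinase, had 0.209% and 11.8% in the control and 0.458% and 56.6% with arsenite. TMEM231, a protein of the ciliary transition zone, went from 2.04% and 5.51% to 0.940% and 66.4%, and ARSA, the lysosomal arylsulfatase, from 1.21% and 7.0% to 0.345% and 36.0%. The transcription factors SIX2, PAX1 and MAFA were alike, SIX2 with 1.74% and 22.3% and then 1.59% and 60.9%. In the 10 genes of the lowest relative split, fraction 1 held 0.345% to 1.59% with arsenite and fraction 2 36.0% to 73.9%.

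The 2 sides differed in length and in base composition. The median mRNA was 1635 nt toward fraction 1, 3120 nt toward fraction 2 and 3346 nt for neither, and the coding sequence 720, 1575 and 1395 nt. The median GC content of the coding sequence was 49.7% toward fraction 1, 59.8% toward fraction 2 and 48.7% for neither, and that of the 3' UTR was 39.6%, 52.2% and 38.6%. The relation with GC content was already there without stress: across 13060 genes the Spearman correlation of the split with coding GC content was -0.425 in the control against -0.337 with arsenite, and that of its change was 0.080 over 7669 genes. The relation with coding length was the reverse, at -0.037 in the control, -0.228 with arsenite and -0.301 for the change. Base composition thus went with the split in both gradients. Over the 10 classes of mRNA length the median split was not monotonic in either gradient: in the shortest, the fourth and the longest class it was -0.04, -1.21 and -0.45 in the control and 0.94, -1.66 and -0.60 with arsenite.

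The pattern with GC content held within length classes. Among short mRNAs (177 to 2451 nt), the median relative split with arsenite was 1.07 for low, 0.72 for middle and 0.20 for high GC content, among mRNAs of 2452 to 4335 nt 0.10, -0.61 and -1.41, and among those from 4336 nt 0.39, -0.19 and -0.93. Sequencing libraries can differ in how they recover GC-rich RNA, and whether such a difference between the fraction 1 and fraction 2 libraries took part was not tested.

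**Figure D4:**
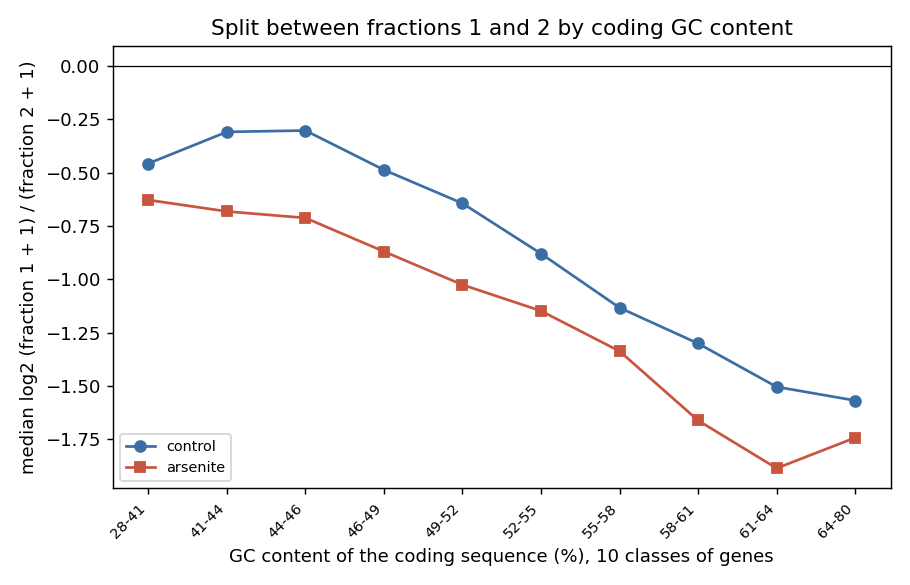
Median log2 ratio of the fraction 1 to the fraction 2 share, after adding 1 point to each, over 10 classes of genes by GC content of the coding sequence in percent, in the control (blue) and with arsenite (red). Both lines fall toward GC-rich genes, from -0.46 to -1.57 in the control and from -0.63 to -1.74 with arsenite.

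The change of the split could be followed in 7725 genes with at least 10% in fractions 1 and 2 in both gradients. Relative to the median, it moved toward fraction 1 by 1 or more in 1186 (15.4%) and toward fraction 2 in 898 (11.6%). RPL35 and RPS12 were among the former, with changes of 2.08 and 1.86. TMEM219 changed by 1.49 in the same direction. EPAS1 kept its side, with a change of -0.07.

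The gene lists fell on different sides. Toward fraction 1 by 1 or more were 67 of 75 oxidative phosphorylation genes compared, 70 of 75 cytosolic ribosomal proteins, 47 of 50 histones, 59 of 74 mitochondrial ribosomal proteins and 20 of 30 proteasome genes, against 23.3% of all genes compared. Cell cycle genes went the other way, with 1 of 29 toward fraction 1 and 10 toward fraction 2, where 21.7% of all genes lay, and their medians with arsenite were 8.07% in fraction 1 and 33.8% in fraction 2. CDK4, a G1 kinase, had 2.49% and 5.12% in the control and 30.5% and 44.4% with arsenite. Solute carriers outside SLC25 had 14 of 170 toward fraction 1 and 63 toward fraction 2. SLC39A4, a zinc importer, was at odds with its family, with 3.17% and 4.54% in the control and 66.3% and 20.8% with arsenite. Glycolysis had 4 of 13 on each side, 30.8% against those 23.3% and 21.7%. The split also differed between length classes, so list medians are given beside the class of the list's median mRNA length. They were 2.92 for oxidative phosphorylation, 2.56 for cytosolic ribosomal proteins and 2.42 for histones, against 2.08. For mitochondrial ribosomal proteins (2.01) and the proteasome (1.77) the class had 0.46. The median length of mitochondrial ribosomal protein mRNAs, 1458.5 nt, lies near the lower edge of this class (1407 nt). The next shorter class had 2.08, so the 0.46 need not describe that whole list. Cell cycle genes had -0.68 against -0.56, and solute carriers outside SLC25 -0.56 against -0.51.

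**Figure D5:**
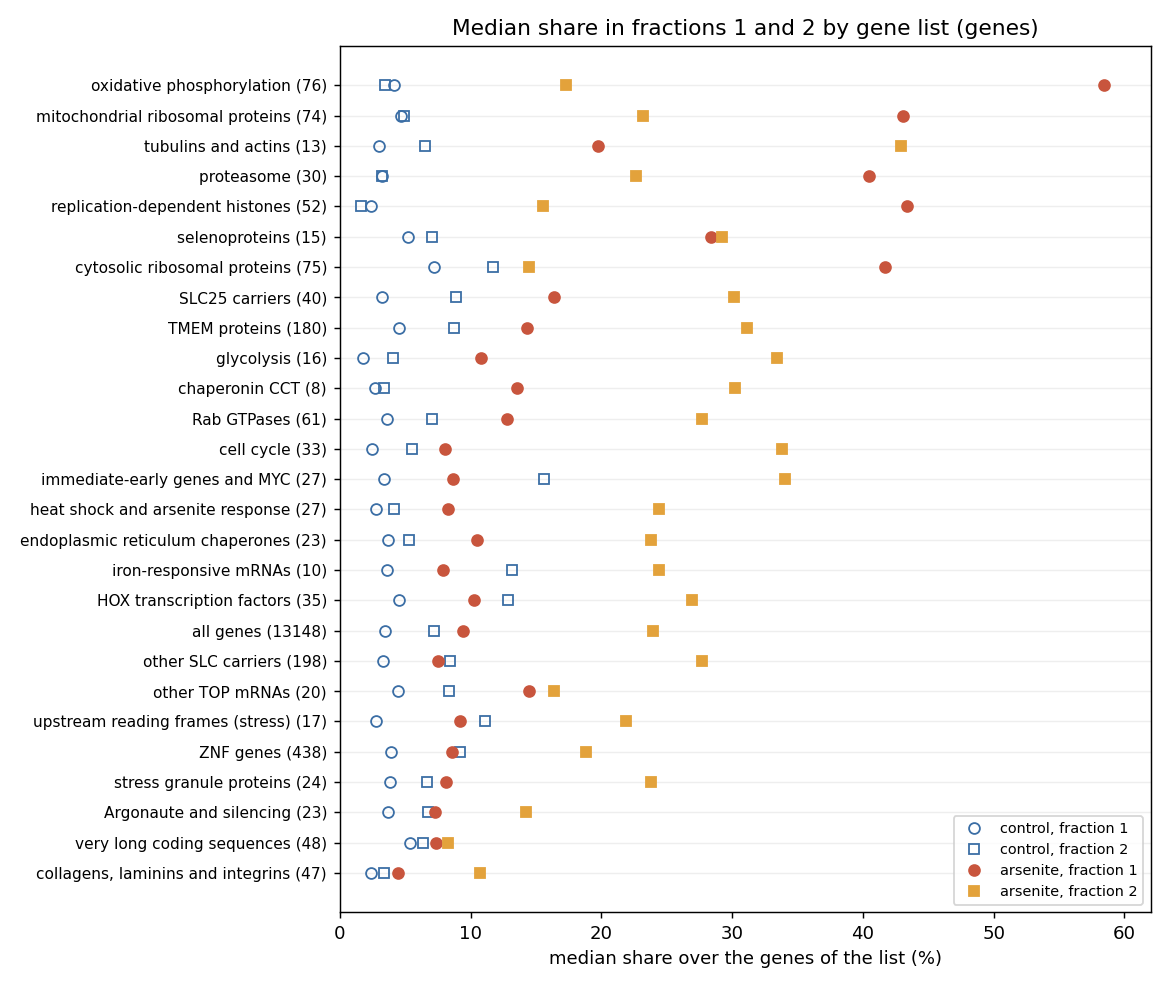
Median share over the genes of each list (numbers in brackets) in percent, for fraction 1 (circles) and fraction 2 (squares) in the control (open) and with arsenite (filled), ordered by the summed share with arsenite. Oxidative phosphorylation has 58.5% in fraction 1 and 17.3% in fraction 2 with arsenite, cell cycle 8.07% and 33.8%, and collagens, laminins and integrins 4.49% and 10.7%.

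The mRNAs that stayed out were long. Their median mRNA was 6095.5 nt and their median coding sequence 2874 nt, against 2502 and 1095 nt for those that entered. The 10 lowest arsenite shares lay between 3.29% and 4.81% and all 10 stayed out with size factors too. CHD5, a chromatin remodeller, had 1.88% and 2.54% in the control and 1.99% and 1.75% with arsenite. SPTBN4, a spectrin, had 0.956% and 2.58% and then 0.876% and 3.09%, and NES, the intermediate filament protein nestin, 0.812% and 1.17% and then 2.08% and 2.58%. CACNG8, a subunit that goes with AMPA receptors, was in this group with 1.26% and 0.850% and then 1.24% and 2.05%. Over the 10 genes the sum changed by between -2.87 and 2.67 points.

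A pair of lists stayed out for the most part. Of 47 collagens, laminins and integrins 29 stayed out, against 15.6% of all genes, and 8 entered (40 and 1 with size factors), with medians of 6.20% in the control and 15.2% with arsenite. Their arsenite share differed from that of genes of like length by a median of -6.62 points (-4.24 with size factors). COL7A1, the anchoring fibril collagen, had 4.06% and 7.30% in the control and 1.91% and 3.38% with arsenite, while the integrin gene ITGAE had 12% and 5.93% and then 65.4% and 15.8%. Of 48 mRNAs with very long coding sequences 35 stayed out and 1 entered (25 and 0 with size factors, with 9 that left), with medians of 12.1% and 17.2%. MDN1, a giant ATPase of ribosome assembly, had 3.79% and 3.63% and then 3.50% and 3.33%. AHNAK, a giant scaffold protein, had 10.9% and 6.66% and then 10.8% and 8.31%. With size factors MDN1 stayed out, while AHNAK and COL7A1 counted as left. Their sums in the control and with arsenite were then 33.1% and 6.77% for AHNAK and 24.3% and 4.26% for COL7A1. Genes of Argonaute proteins and of silencing entered in 5 of 23 cases (0 with size factors) and stayed out in 9. The list had a median mRNA of 6152 nt, and in the length class of 5642 to 7401 nt 19.7% of genes entered and 38.7% stayed out. Its arsenite share differed from that of genes of like length by a median of -3.41 points. EIF2C2, which encodes Argonaute 2, went from 3.04% and 6.75% to 6.38% and 14.4%, as deposited a rise of 10.9 points against the median of 24.3. With size factors its sum was lower with arsenite, at 10.9% against 20.8% in the control. Its annotated mRNA is 14581 nt long, and its arsenite share was 1.38 points above that of genes of like length.

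mRNAs known to be translated under stress through upstream reading frames were on both sides of these classes. Of 17 listed, 9 entered (52.9%, against 57.8% of all genes), 4 stayed out and 4 lay between, and with size factors 2 entered, so as a list they were near or below all genes. ATF4, the transcription factor of the integrated stress response, had 2.8% and 15.8% in the control and 4.61% and 13.3% with arsenite, so its sum was nearly equal at 18.6% and 17.9% (it counted as left with size factors). PPP1R15A, which directs a phosphatase to eIF2, went from 0.917% and 11.1% to 5.51% and 14.0%. ATF4 and PPP1R15A thus had more than the median share in fraction 2 without stress and less than it with arsenite. DDIT3, a transcription factor downstream of ATF4, went from 6.34% and 11.5% to 26.7% and 12.1%, its gain as deposited being in fraction 1. With size factors the sums in the control and with arsenite were 37.4% and 36.5% for DDIT3 and 22.7% and 9.33% for PPP1R15A. IFRD1 stayed out at 6.60% and then 15.1% in sum, and TIMM50, of the mitochondrial import channel, entered with 70.9%.

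Genes induced by heat or arsenite entered in 23 of 27 cases, against 57.8% of all genes, and in 8 (29.6%) with size factors, against 20.6%. HMOX1, the arsenite-induced heme oxygenase, went from 2.37% and 9.15% to 17.4% and 36.2%, HSPA1A, an inducible Hsp70, from 4.96% and 3.73% to 8.21% and 23.1%, and TXNRD1, a selenium-dependent thioredoxin reductase, from 2.40% and 3.74% to 5.87% and 9.19%. TXNRD1 stayed out. Immediate-early genes with MYC had a high control share, at a median of 20.3%, most of it in fraction 2, and 15 of 27 entered (55.6%, near the share of all genes, and 0 with size factors). MYC went from 2.58% and 9.86% to 7.61% and 29%, FOS from 3.38% and 14.9% to 5.97% and 20.8%, and JUN from 2.11% and 10.9% to 3.89% and 20.8%. In all 3 the larger share was in fraction 2 in both gradients. Among 23 chaperones of the endoplasmic reticulum 17 entered (73.9%, and 9 with size factors) and HSPA5, the Hsp70 of that compartment, stayed out, with 2.21% and 2.31% in the control and 6.14% and 5.57% with arsenite. Among 24 genes of stress granule proteins 10 entered (41.7%, and 0 with size factors), and PABPC1, the poly(A)-binding protein, went from 4.11% and 25.5% to 11.9% and 37.2%.

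A small group left. Of the 43 genes only 4 had no 0 in any library: LRRC39, PEX5L, ZNF442 and CCDC80. LRRC39 had 31.6% and 15.1% in the control and 9.02% and 7.97% with arsenite, and PEX5L, a relative of a peroxisomal import receptor, 35% and 5.24% and then 6.67% and 3.92%. In ZNF442 the loss was in fraction 2, from 37.0% to 13.5%, and in CCDC80 in both. With size factors 733 genes left (5.57%), all 43 of these among them. A share near 0 or 100% from few reads cannot be told from a real one without the depth, so the other 39 are given only as a count.

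Other features of the mRNAs were counted in each class. An ATG upstream of the coding sequence was annotated in 48.8% of the genes that entered, 58.8% of those that stayed out, 65.1% of those that left and 53.6% of all. A hydrophobic stretch of 19 residues near the start of the protein, a sign of a signal peptide, was predicted in 12.2% of those that entered and 10.9% of those that stayed out, against 11.6% of all genes. Among the genes that left it was 12 of 43 (27.9%). Only 4 of these 43 had no 0 in any library, so this figure and the 65.1% describe a class that may rest on few reads.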

How the data were processed

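RNA from 8 sucrose gradient fractions of untreated and of arsenite-treated 293S cells was sequenced, with 1 library each, and the libraries of fractions 1 and 2 were compared. The authors deposited 1 table of 13148 genes whose library columns hold, as a fraction of 1, the share of a gene's total in each gradient fraction, and 3 score columns with mean fraction numbers and their difference. The 8 shares of a gene added up to 100 percent within 2.3e-13, and the mean fraction number recomputed from them matched the deposited score within 1.5e-14. Values cover RefSeq exons, per the file headers, and the submitters' processing notes name the build hg19. Not given in the sources used here are the aligner, the counter, the use of strand, any filter on genes and the scaling between fractions.

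Shares were expressed in percent and summed over fractions 1 and 2. Classes used thresholds of 50% in the control, 20 points of rise or fall, and 20% in both gradients. The split used a pseudocount of 1 point and genes with at least 20% in the 2 fractions with arsenite, and its change used genes with at least 10% in both gradients. With 1 library per group no test between groups was made, and called means past these thresholds. The code that assigns the classes was checked on simulated profiles. Alternatives were median-of-ratios size factors, genes with no 0, other thresholds, pseudocounts of 0.1 and 10 points, other sets of fractions, and leaving out each of fractions 3 to 8. The members, lists, thresholds and rules were chosen with earlier results of these data known.

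Named genes were, among genes with no 0, the 10 highest control shares, the 10 largest rises and falls, the 10 lowest arsenite shares, the 10 highest and lowest relative splits, for each list the members with the highest and lowest arsenite share and the highest split, and 27 single genes, of which 26 were in the table. Other genes were named after their values were seen. No member of the noncoding RNA list was found. Lengths and sequences came from 1 protein-coding transcript per gene of GENCODE 29 (13060 genes matched, 99.33%), mainly the principal isoform, and starts from RefSeq, GRCh38.p14 (10736 genes, 81.66%). Genes of like length are those of the same twentieth by mRNA length (20 bins). This comparison and those with GC content and upstream ATG were chosen after seeing the data. Python 3.11.15, pandas 2.3.3, numpy 2.4.6 and matplotlib 3.10.9 were used.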

Additional observations from a re-analysis of the deposited data

How the results depend on the processing

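With size factors in place of the deposited scaling, 440 genes were already low, 2711 entered and 733 left, the median rise was 1.55 points and the median log2 ratio 0.10. More lay in fraction 1 than in fraction 2 with arsenite in 8038 genes, and the split changed by 1 or more in 1889 and by -1 or less in 1379. The number that stayed out and the numbers on either side of the split kept within 1.5 times. Over genes with no 0, 49 were already low and 4 left. Other thresholds gave 219 (40%) and 41 (60%) already low, and 271 (10%) and 4337 (30%) that stayed out. For fraction 1 alone, 9 genes were already low, 2330 entered, 9992 stayed out, 15 left and the median rise was 5.13 points. For fraction 2 alone, 12 were already low, 4913 entered, 5005 stayed out and the rise was 15.5 points. For fractions 1 to 3, 855 were already low, 84 stayed out, 106 left and the rise was 36.9 points. Leaving out fraction 3, 4 or 5 gave 242, 184 and 159 already low and 906, 1025 and 1009 that stayed out, and without fraction 4, 70 left. A pseudocount of 10 points put 958 genes toward fraction 2, and 753 and 272 changed their split up and down. Comparing the split from 40% put 1582 toward fraction 2, and comparing its change from 20% gave 292 and 235. Against genes of like length, the median arsenite share of endoplasmic reticulum chaperones was -0.27 points as deposited and 1.91 with size factors, and that of immediate-early genes 0.40 and -1.68. Causes were not tested beyond the fewer genes or fractions that an alternative uses.

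No paired analysis was possible because each treatment and fraction had 1 library, and for the same reason there was no replicate to leave out. The depth of the libraries is unknown, so how precise a share is cannot be given, and shares that rest on few reads cannot be told from others. Lengths come from annotated transcripts, which need not be those expressed in 293S cells, as for NACA and SDHC, whose annotated forms are long.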

Other observations

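Some genes lay away from their length. Among the 10 classes of genes by coding length, the shortest held exceptions. IGF2, a growth factor, stayed out, with 1.88% in fraction 1 and 8.34% in fraction 2 in the control and 0.707% and 4.57% with arsenite. DYNLL2, a dynein light chain, had 0.603% and 6.53% and then 2.19% and 11.0%, and C14orf132 had 1.73% and 3.65% and then 5.64% and 5.85%. Their annotated mRNAs were 5144, 6805 and 7583 nt long, so their coding sequences were short and their mRNAs were not. MRFAP1L1 stayed out as well, at 8.48% and then 14.0% in sum, with an mRNA of 1593 nt. In the class of the longest coding sequences, CAMTA1, a transcription activator, had 20.4% and 8.84% in the control and 60.5% and 14.8% with arsenite. DNAH14 and ATRNL1 were already low there, ATRNL1 with 30.9% and 28.2% and then 40.1% and 29.4%.

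HOX and ZNF transcription factors had a higher median share than all genes without stress and gained less. HOX genes had a median of 17.6% in fractions 1 and 2 in the control and 38.8% with arsenite, and 15 of 35 entered (42.9%, against 57.8% of all genes, and 0 with size factors, against 20.6%). Their arsenite share was 15.2 points below that of genes of like length, the lowest of the lists. Among 438 genes named ZNF the medians were 14.0% and 30.0%, 127 entered (29%, and 12 with size factors) and 84 stayed out (15.6% of all genes did), and the difference from genes of like length was -5.61 points. ZNF32 and ZNF593 were exceptions, ZNF593 with 5.83% and 6.07% in the control and 60.3% and 18.6% with arsenite. Selenoprotein mRNAs, which recode a stop codon, entered in 13 of 15 cases (86.7%, and 6 with size factors). GPX1, a glutathione peroxidase, went from 4.82% and 9.03% to 51.3% and 35.7%, and SEPW1 from 18.6% and 17.7% to 64.6% and 20.5%.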
